A study of Rattus norvegicus with 20 samples.

Results

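The 4 genes Foxo1, Foxo3, Trim63 and Fbxo32 were followed in the calf muscle and abdominal fat of the same rats. They were chosen by Ensembl identifier as 2 transcription factors and the 2 muscle ubiquitin ligases known as their targets: Foxo1 (ENSRNOG00000013397), Foxo3 (ENSRNOG00000000299), Trim63 (ENSRNOG00000016543) and Fbxo32 (ENSRNOG00000006738). They are 4 of 32883 genes in the table, and all 4 were among the 13806 genes with enough reads to be tested. The study sequenced messenger RNA of 20 libraries, 10 of gastrocnemius muscle and 10 of abdominal white adipose tissue, from 10 Fischer 344 x Brown Norway rats. No treatment is named in the labels. The animals were 8 months old and had acclimated for 2 weeks to a reversed light cycle. Both tissues were frozen after isoflurane anaesthesia and decapitation. Each sample label gives the sex as male, while the design text speaks of 5 males and 5 females, so no comparison by sex was made. Fed or fasted state was not given in the sources used here.

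FoxO proteins are transcription factors that insulin and IGF signalling keep out of the nucleus: the kinase Akt phosphorylates them, and they are then held in the cytoplasm. When that signal is weak, or under glucocorticoids and fasting, FoxO factors act on genes for protein breakdown in skeletal muscle. Trim63 encodes MuRF1, a RING-finger ubiquitin ligase of the sarcomere, and Fbxo32 encodes atrogin-1 (MAFbx), the F-box subunit of an SCF ubiquitin ligase; both are widely used as markers of muscle atrophy. In fat cells Foxo1 is known for its part in differentiation and lipolysis.

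A stretch upstream of Trim63 is shown because it holds, side by side, letters that FoxO factors and the glucocorticoid receptor are known to bind. Sequences came from RefSeq promoters of the assembly GRCr8, which hold 250 bases before and 50 bases after each gene's start; 2 of the 4 genes, Trim63 and Foxo1, were matched by symbol. The stretch lies on chromosome 5 at chr5:151816986-151817185, plus strand, from 250 to 51 bases before the start, outside the transcript that begins there. Capitals mark a glucocorticoid core (GAACA and TGTTC with any 3 bases between, a palindrome) followed directly by the FoxO element TTGTTTAC.
Trim63 upstream: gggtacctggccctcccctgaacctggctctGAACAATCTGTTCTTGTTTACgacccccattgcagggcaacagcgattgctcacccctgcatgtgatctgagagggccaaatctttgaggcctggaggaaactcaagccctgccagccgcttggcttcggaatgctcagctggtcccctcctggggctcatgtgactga

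On either strand, TTGTTTAC was found in 1.1% of 33469 promoters of 300 bases, and the shorter FoxO core GTAAACA, whose reverse complement overlaps it, in 3.78%. The glucocorticoid core, which was chosen after the Trim63 sequence was read, was found in 17 of these promoters, or 0.0508%. The full palindromic glucocorticoid response element, which has 1 more fixed base on each side, was found in 0.0149% and the insulin response element CAAAACA in 6.28%; neither is in the Trim63 window. The direct succession of the glucocorticoid core and TTGTTTAC was also read off the Trim63 sequence, so its presence there was fixed in advance. Among the promoters it was found in 1, that of Trim63. None of these letters was found in the Foxo1 window. A match describes letters and not a bound site.

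The muscle libraries held between 8446548 and 20141701 counts, and the adipose libraries between 11067641 and 25904168. Muscle library 2, adipose library 4 and adipose libraries 1, 3 and 5 stood apart in ways that touch the results and are taken up beside them. Levels are given as CPM, which are reads of a gene per library of common size, after trimmed-mean (TMM) scaling of the libraries. CPM values are not corrected for gene length, so levels are compared between libraries and not between genes. The scaling matters between such different tissues: with library totals in place of TMM factors, the median log2 fold change of all genes shifted by -1.31 towards adipose tissue. In whole tissue, fewer cells of a type and less RNA per cell cannot be told apart. Nothing in the sources says whether libraries differ in extraction or sequencing batch.

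Both ligase transcripts and Foxo3 were higher in muscle, and Foxo1 did not pass the test. Trim63 was about 268-fold and Fbxo32 about 15.8-fold higher in muscle, Foxo3 was 2.86-fold higher, and Foxo1 stood at a ratio of 0.93. Thus 3 of the 4 genes were called higher in muscle, beside 37.6% of all genes tested (quasi-likelihood test in edgeR, with p adjusted after Benjamini and Hochberg and a threshold of 0.05). In either direction 79.8% of all genes were called. These calls used TMM factors. With library totals Foxo3 did not pass and Foxo1 was called higher in adipose tissue, as given below.

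**Figure D1:**
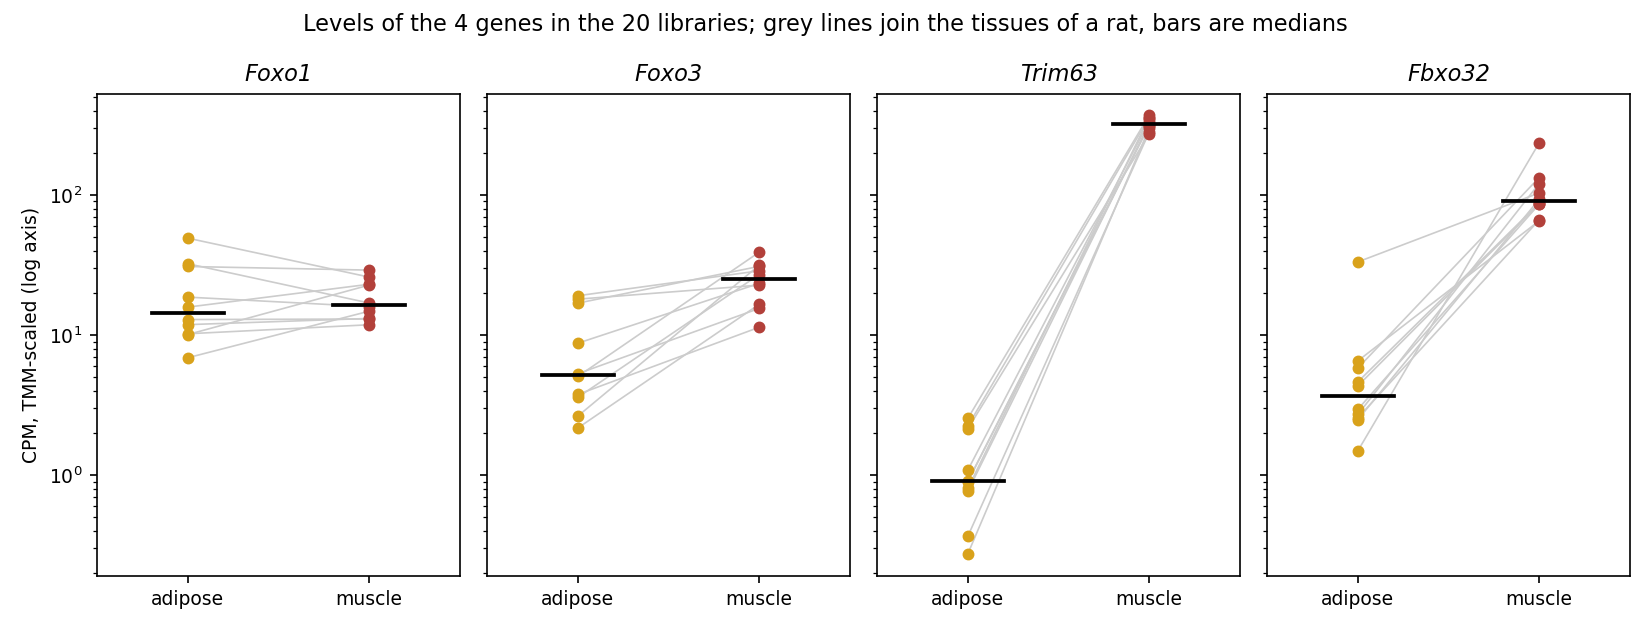
TMM-scaled CPM of the 4 genes (log axis) in the 10 adipose and 10 muscle libraries, with grey lines joining the tissues of a rat and bars at the medians. Trim63 lies between 272 and 370 in muscle and at most at 2.55 in adipose tissue, while the Foxo1 points of the tissues overlap.

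Foxo1, the factor best known in fat and liver for the insulin response, ranged in muscle from 11.9 CPM in library 2 over a median of 16.5 to 29.1 in library 8. In adipose tissue it ranged from 6.90 CPM in library 3 over a median of 14.4 to 49.2 in library 7. The tissues overlapped: the adipose values spread beyond the muscle values on both sides, with 3 adipose libraries below and 3 above all muscle libraries. The mean was 18.7 ± 6.08 CPM in muscle and 19.9 ± 13.4 CPM in adipose tissue (SD, n = 10), and 6 of 10 rats had the higher level in muscle. The log2 fold change of muscle over adipose tissue was -0.10 (SE 0.30, adjusted p = 0.759 in edgeR), with an interval of 2 SE on each side from -0.71 to 0.50. With library totals it was -1.47 (SE 0.33, adjusted p = 0.000306 in edgeR) and Foxo1 was called higher in adipose tissue, as were 74.2% of all genes under that scaling. Relative to the median of all genes Foxo1 stood at -0.02 with TMM factors and at -0.07 with library totals, so under either scaling it lay near the typical gene.

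Foxo3, the FoxO factor most studied in muscle atrophy, ranged in muscle from 11.4 CPM in library 1 over a median of 25.2 to 39.0 in library 6. In adipose tissue it ranged from 2.17 CPM in library 3 over a median of 5.19 to 19.1 in library 7. Muscle was higher in 10 of 10 rats, although the tissues overlapped: 7 muscle libraries lay above all adipose libraries, and adipose libraries 4, 7 and 8, at 16.9 to 19.1 CPM, reached into the muscle range. The mean was 24.7 ± 8.48 CPM in muscle and 8.54 ± 6.81 CPM in adipose tissue (SD, n = 10). On the log2 scale muscle exceeded adipose tissue by 1.52 (SE 0.38, adjusted p = 0.000978 in edgeR). With library totals it was 0.14 (adjusted p = 0.744 in edgeR) and 7 of 10 rats had the higher level in muscle, so the call rests on the scaling; 12.3% of all genes were called higher in muscle by library totals. Relative to the median of all genes it was 1.60 with TMM factors and 1.54 with library totals.

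Trim63, the sarcomeric ligase MuRF1, was nearly restricted to muscle. In muscle it ranged from 272 CPM in library 4 over a median of 319 to 370 in library 3. In adipose tissue it ranged from 0.275 CPM in library 8 over a median of 0.903 to 2.55 in library 3. Every muscle library was above every adipose library, as for 21.1% of all genes tested. The lowest adipose value rests on 6 reads, for which an exact 95% Poisson interval runs from 0.101 to 0.599 CPM, and the highest on 34 reads, with 1.76 to 3.56 CPM; these intervals cover counting error only. The mean was 322 ± 33.0 CPM in muscle and 1.21 ± 0.809 CPM in adipose tissue (SD, n = 10). On the log2 scale muscle exceeded adipose tissue by 8.07 (SE 0.35, adjusted p = 5.81e-15 in edgeR). Among all genes tested, 182, or 1.32%, were called with a fold change at least as large. Scaled by library totals it was 6.76 (adjusted p = 3.91e-14 in edgeR), and the libraries again did not overlap, as for 6.06% of all genes under that scaling.

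Fbxo32, the F-box subunit atrogin-1, was higher in muscle but also measurable in each adipose library. In muscle it ranged from 65.4 CPM in library 7 over a median of 90.2 to 235 in library 2. In adipose tissue it ranged from 1.49 CPM in library 2 over a median of 3.65 to 33.3 in library 4. Every muscle library was above every adipose library on this scale, as for 21.1% of all genes tested. Adipose library 4 still stood 5.08 times above the next adipose library, which had 6.55 CPM. The mean was 108 ± 49.6 CPM in muscle and 6.69 ± 9.49 CPM in adipose tissue (SD, n = 10). On the log2 scale muscle exceeded adipose tissue by 3.98 (SE 0.50, adjusted p = 2.16e-07 in edgeR). A fold change at least as large was called for 539 genes, or 3.9% of those tested. Without adipose library 4 the adipose mean was 3.73 ± 1.70 CPM (SD, n = 9) and the log2 fold change 4.84 (SE 0.31, adjusted p = 5e-12 in edgeR). Scaled by library totals it was 2.57 (adjusted p = 0.000122 in edgeR), and adipose library 4, at 65.9 CPM, then lay above 6 of the 10 muscle libraries.

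In adipose libraries 1, 3 and 5 transcripts of muscle-restricted genes were raised, and the ligases were set beside them. For this, 169 other genes were taken whose muscle median, scaled by library totals, reached 20 CPM and was 100 or more times the median in adipose tissue; Trim63 met the same criterion and was left out of the set. In adipose libraries 1, 3 and 5 the set stood at a median of 0.529%, 0.818% and 0.173% of its muscle level, and Trim63 at 0.705%, 0.799% and 0.341%. Trim63 thus stood within 2 times of the set in these libraries. In the remaining 7 adipose libraries the set stood at 0.0106% to 0.0515% and Trim63 at 0.0862% to 0.673%, the highest in library 4. Without libraries 1, 3 and 5 the adipose mean of Trim63 was 0.881 ± 0.613 CPM (SD, n = 7), and the difference on the log2 scale was 8.55 (SE 0.35, adjusted p = 7.95e-14 in edgeR).

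Fbxo32 did not meet the criterion of the muscle-restricted set, so its standing above the set in adipose tissue follows largely from that choice, and its values are a description. Its adipose level was 2.85%, 4.82% and 5.14% of its muscle median in libraries 1, 3 and 5. It was 36.9% in library 4 and 1.66% to 7.26% in the other 6 libraries. In library 4 the set stood at a median of 0.0455% with a 90th percentile of 1.53%, the highest of the 10 adipose libraries, next to 1.51% in library 3 and 0.163% to 0.246% in libraries 2 and 6 to 10. Without libraries 1, 3 and 5 the log2 fold change of Fbxo32 was 3.82 (SE 0.57, adjusted p = 6.52e-06 in edgeR).

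**Figure D2:**
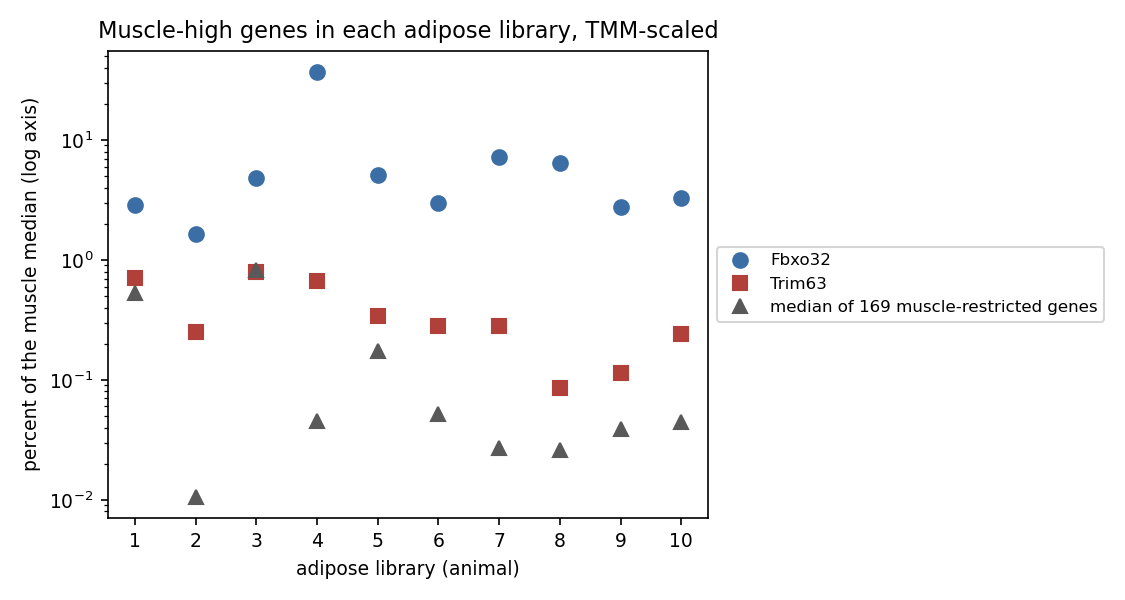
Level of Fbxo32, of Trim63 and the median of 169 muscle-restricted genes in each adipose library, in percent of the median of the 10 muscle libraries (log axis, TMM-scaled). Fbxo32, which did not meet the criterion of the set, lies above it and reaches 36.9% in library 4, while Trim63 comes close to the set in libraries 1 and 3.

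Ratios of 2 genes within a library depend on the scaling of libraries to each other only through the prior count added before the logarithm, and each of the 6 ratios differed between the tissues. The log2 ratio of Foxo1 to Foxo3 was -0.38 ± 0.44 in muscle, from -1.40 to 0.21, and 1.36 ± 0.35 in adipose tissue, from 0.84 to 1.91 (SD, n = 10). The tissues did not overlap, and the balance lay further towards Foxo3 in muscle in 10 of 10 rats. The mean difference of muscle minus adipose tissue was -1.74 (SD 0.66 over rats; two-sided exact permutation test by sign flips, p = 0.00195, adjusted over 6 ratios 0.00195). This p is the smallest that 10 rats allow. The 6 ratios are built from the same 4 genes, so they are not independent of each other or of the fold changes above. In either direction 79.8% of all genes were called, and the share of other gene pairs whose ratio differs is not given here. Scaled by library totals the difference was -1.75, and 3.71 for the ratio of Trim63 to Fbxo32 described next.

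The balance of the ligases differed between the tissues as well. The log2 ratio of Trim63 to Fbxo32 was 1.68 ± 0.56 in muscle, from 0.60 in library 2 to 2.43, and -1.99 ± 1.27 in adipose tissue, from -3.93 to -0.18 (SD, n = 10). The difference was 3.67 (SD 1.25 over rats) and positive in 10 of 10 rats (same exact permutation test, p = 0.00195, adjusted 0.00195). The ratios of either FoxO gene to either ligase were lower in muscle in 10 of 10 rats, by -2.66 for Foxo3 to Fbxo32 up to -8.08 for Foxo1 to Trim63, with the same p and adjusted p.

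**Figure D3:**
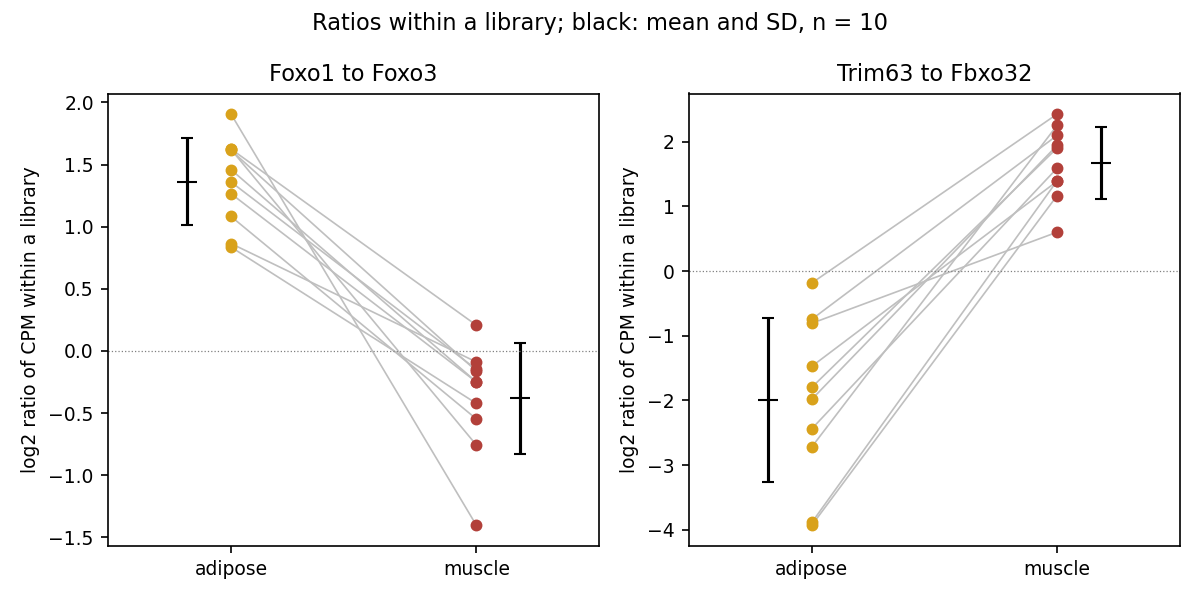
Log2 ratio of Foxo1 to Foxo3 (left) and of Trim63 to Fbxo32 (right) within each library, with grey lines joining the tissues of a rat and black marks for the mean and SD of 10 libraries. The tissues do not overlap in either panel: Foxo1 to Foxo3 averages -0.38 in muscle and 1.36 in adipose tissue, Trim63 to Fbxo32 averages 1.68 and -1.99.

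The spread over muscle libraries was small for Trim63 and wide for Fbxo32, which is a description without a test. The SD of Trim63 over the 10 muscle libraries was 0.15 on the log2 CPM scale, a coefficient of variation of 10.3%, and 9.42% of the 9335 genes averaging 5 CPM or more in muscle had a lower SD. Fbxo32 had an SD of 0.54, which placed 86.1% of these genes below it, next to Foxo3 with 0.55 (86.2%) and Foxo1 with 0.46 (80.7%). The median SD of all these genes was 0.28. Much of the Fbxo32 spread came with muscle library 2, which held 235 CPM next to 133 CPM in library 8. The same library held the lowest Foxo1 level, 11.9 CPM, a high Foxo3 level, 31.5 CPM, and 357 CPM of Trim63. Without library 2 the muscle mean of Fbxo32 was 93.6 ± 22.6 CPM (SD, n = 9).

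Library 2 stood apart in many genes. In it 175 of 9335 genes exceeded each other muscle library at least 2-fold, and 320 were lower than each other one by the same factor, against at most 11 and 16 for any other muscle library. The gap of Fbxo32 to the next library was 0.82 on the log2 scale, and 264 other genes had a gap at least as large. Its level of 154 adipose-restricted genes was 1.09% of their adipose level, next to 0.530% to 0.948% in the other muscle libraries. The part of these features in the Fbxo32 level was not tested.

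In adipose tissue the FoxO genes and Fbxo32 spread widely. On the log2 CPM scale the SD over 10 libraries was 0.89 for Foxo1, 1.15 for Foxo3 and 1.20 for Fbxo32. Of the 10152 genes averaging 5 CPM or more in adipose tissue, 97.7% had a lower SD than Foxo3 and 98.0% a lower one than Fbxo32, and the median SD was 0.34. Adipose libraries 4, 7 and 8 held the highest levels of both FoxO genes. In these 3 libraries Foxo1 lay at 30.9 to 49.2 CPM and Foxo3 at 16.9 to 19.1 CPM, and in the other 7 at 6.90 to 18.7 and at 2.17 to 8.76 CPM.

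Co-variation across animals was measured for 16 pairs of values: the 6 pairs of genes in muscle, the 6 in adipose tissue, and each gene in muscle against itself in adipose tissue. Pearson's r and Spearman's rho of log2 CPM over 10 libraries were tested by permutation (100000 resamples, two-sided) and adjusted over the 16 for each coefficient. Some leave-outs were adjusted over fewer pairs, as stated below. Their adjusted p-values are less strict than those over the 16. With all 10 rats, no pair in muscle passed the adjusted test.

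No co-variation of the 2 ligases was detected in muscle. Trim63 and Fbxo32 had r = 0.03 (permutation p = 0.927, adjusted 0.927) and rho = -0.26 (permutation p = 0.47, adjusted 0.752) over 10 muscle libraries, and r = 0.16 without the 2 libraries farthest from the Trim63 median. Without rat 2 r was -0.45 (exact permutation test, n = 9, adjusted p = 0.296), and with library totals 0.41 (permutation adjusted p = 0.478), so its sign was not settled. Ordered by r with Fbxo32 across muscle libraries, Trim63 was 4986th of 9334 genes, whose median r was 0.10.

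Foxo1 and Foxo3 had r = 0.62 in muscle (permutation p = 0.0571, adjusted 0.174) and rho = 0.48 (permutation p = 0.164, adjusted 0.327), and r = 0.57 without the 2 libraries farthest from the Foxo1 median. Muscle library 2, with the lowest Foxo1 beside a high Foxo3 level, lay off the line of the other 9. Without rat 2 r was 0.87 (exact permutation test, n = 9, p = 0.00229, adjusted 0.0183) and rho 0.92 (p = 0.00131, adjusted 0.0105). This was the one of 10 such leave-outs in which r of the pair passed the adjusted test. With all 10 libraries Foxo3 was 509th of 9334 genes by r with Foxo1, and Foxo1 was 1147th by r with Foxo3.

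Foxo3 and Fbxo32 had r = 0.58 in muscle (permutation p = 0.078, adjusted 0.178) and rho = 0.67 (permutation p = 0.0388, adjusted 0.137), with r = 0.44 without the 2 libraries farthest from the Foxo3 median. Foxo1 and Trim63 had a negative coefficient, r = -0.61 (permutation p = 0.0643, adjusted 0.174) and rho = -0.66 (permutation p = 0.0427, adjusted 0.137), and r = -0.64 without the 2 farthest. Neither pair passed the adjusted test with all 10 rats. With each rat left out, r of Foxo3 with Fbxo32 was 0.46 to 0.73 and did not pass. Without rat 7 its rho was 0.90 (exact permutation test, n = 9, p = 0.00203, adjusted 0.0162). In no other leave-out of 1 rat did rho of this pair pass. With all 10 libraries Fbxo32 was 1328th of 9334 genes by r with Foxo3, and Foxo3 was 1938th by r with Fbxo32. Counted from the lowest r, Trim63 was 509th with Foxo1 and Foxo1 was 385th with Trim63. Foxo1 with Fbxo32 and Foxo3 with Trim63 had r = -0.12 and r = -0.41 (permutation adjusted p = 0.82 and 0.432). Depth and scaling did not stay equal across these libraries: over the 10 muscle libraries, r with log2 library total was -0.43 for Foxo1, -0.27 for Foxo3, 0.40 for Trim63 and 0.28 for Fbxo32, and r with the log2 TMM factor was 0.57 for Fbxo32 and between -0.42 and 0.15 for the others. With the log2 level of the 154 adipose-restricted genes, r was 0.75 for Fbxo32, 0.37 for Foxo3, 0.37 for Trim63 and -0.07 for Foxo1. The part of these measures in the relations was not tested.

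**Figure D4:**
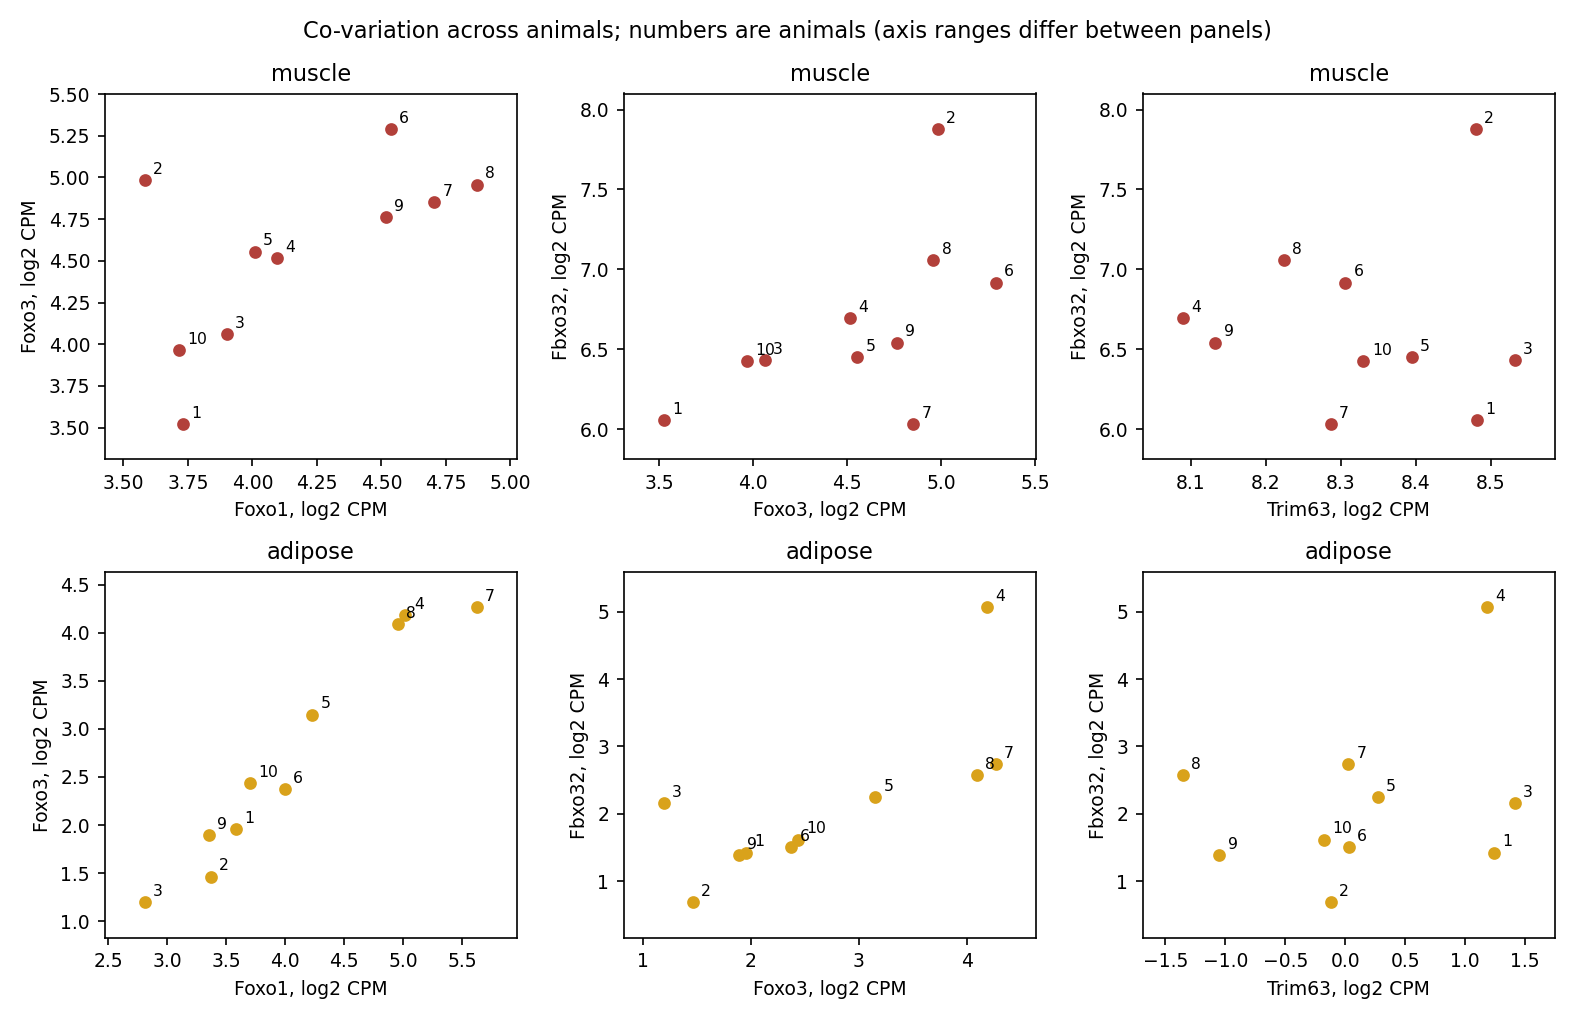
Log2 CPM of Foxo1 against Foxo3, Foxo3 against Fbxo32 and Trim63 against Fbxo32 in the 10 muscle libraries (upper row) and the 10 adipose libraries (lower row), with each point numbered by its rat. Muscle library 2 lies away from the other 9 in the upper row, and in adipose tissue Foxo1 and Foxo3 fall along a line (r = 0.97).

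In adipose tissue Foxo1 and Foxo3 varied together across rats. Over 10 adipose libraries r was 0.97 and rho 0.98 (permutation p = 2e-05 and adjusted 0.00032 for each). Without the 2 libraries farthest from the Foxo1 median r was again 0.97. Without libraries 4, 7 and 8 it was 0.94 (exact permutation test, n = 7, p = 0.00337). The adjusted p of 0.0202 from this test was taken over the 6 pairs in adipose tissue and not over the 16. A high r was thus also seen among the 7 libraries with low levels, but without adjustment over the 16 pairs. With library totals r was 0.98. By r with Foxo1, Foxo3 was 27th of 10152 genes, among which the quartiles of r were -0.62 and 0.58. By r with Foxo3, Foxo1 was 61st. Both genes also moved with the TMM factor of the adipose libraries, with r = 0.61 for Foxo1 and 0.66 for Foxo3, and with the library total less, with r = 0.16 and 0.23. Whether the correlation differs between the tissues was not tested.

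Fbxo32 in adipose tissue moved with Foxo3 by r but not by rho after adjustment, with r = 0.74 (permutation p = 0.00426, adjusted 0.0341) and rho = 0.81 (permutation p = 0.00759, adjusted 0.0561). By r with Foxo3, Fbxo32 was 1763rd of 10152 genes, and by r with Fbxo32, Foxo3 was 859th. Adipose Fbxo32 had r = 0.55 with the log2 TMM factor, next to 0.66 for Foxo3. The part of that factor was not tested. The relation of Fbxo32 with Foxo3 depended on which libraries were included. Without rats 1, 3 and 5 r was 0.83 (exact permutation test, n = 7, adjusted p = 0.0169) and rho 0.96 (adjusted p = 0.0278). No label marks these rats, which stood apart only in these same counts. Without rat 3 alone r was also 0.83 (exact permutation test, n = 9, adjusted p = 0.00108) and rho 0.98 (adjusted p = 0.000794). All adjusted p-values of correlations without rats 1, 3 and 5 were taken over the 6 pairs in adipose tissue and the 4 across tissues. They were not taken over the 16. Without the 2 libraries farthest from the Foxo3 median r was 0.65 (exact permutation test, n = 8, adjusted p = 0.337). Without libraries 4, 7 and 8 it was 0.39 (exact permutation test, n = 7, p adjusted over the 6 adipose pairs = 0.687). Fbxo32 with Foxo1 had r = 0.65 (permutation adjusted p = 0.174) and rho = 0.78 (permutation adjusted p = 0.0561). Without rats 1, 3 and 5 these were 0.74 (exact permutation test, n = 7, adjusted p = 0.11) and 0.89 (adjusted p = 0.041). These 2 values were again not adjusted over the 16 pairs. Trim63 had r = -0.20 with Foxo1, -0.21 with Foxo3 and 0.31 with Fbxo32 in adipose tissue, none past the adjusted test (permutation adjusted p = 0.656, 0.656 and 0.586). Its adipose level had r = 0.69 with the log2 level of the 169 muscle-restricted genes.

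Across tissues, the muscle and adipose levels of none of the 4 genes passed the adjusted test over 10 rats, by r or by rho. Foxo1 had r = 0.60 (permutation p = 0.0651, adjusted 0.174) and rho = 0.58 (permutation p = 0.0878, adjusted 0.234) over 10 rats. Rats 7 and 8 were high in both tissues, and without them, the 2 farthest from the muscle median, r was 0.21. Foxo3 had r = 0.30, Trim63 0.44 and Fbxo32 -0.24 (permutation adjusted p = 0.586, 0.422 and 0.593). For Trim63, r was 0.85 without rat 4 (exact permutation test, n = 9, adjusted p = 0.0315) and -0.08 without rats 1, 3 and 5 (exact permutation test, n = 7, adjusted p = 0.906), whose adipose libraries held raised muscle-restricted transcripts.

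The genes whose muscle pattern was most like that of Fbxo32 are known here by identifier alone. Over 10 muscle libraries and 9331 other genes, ENSRNOG00000016790 had r = 0.97 with Fbxo32 and ranged from 32.3 over a median of 36.0 to 47.5 CPM, with the highest value in library 2. ENSRNOG00000011216 also had r = 0.97, with 44.0 over 51.5 to 109 CPM. In the opposite direction, ENSRNOG00000021615 had r = -0.97, with its lowest value of 1.95 CPM in library 2 and 8.32 CPM at most, and ENSRNOG00000043400 had r = -0.92, with 3.17 to 10.1 CPM. Without library 2 these values of r were 0.94, 0.92, -0.94 and -0.80. They were picked as the extremes of all genes and carry no test.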

How the data were processed

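Libraries of messenger RNA started from 300 ng of RNA, extracted from 10 mg (muscle) or 30 mg (adipose) of tissue, per the labels' protocols. The authors deposited expected counts per gene, not normalised, of which 25.3% of the values above 0 were whole within 0.005. STAR, featureCounts, bcl2fastq and the build rn6 are named, without roles or versions, per the submitters' processing notes; for the annotation release, the strand setting and shared reads the entry is: not given in the sources used here. Nothing in the labels says that libraries of a tissue are other than separate animals, and no 2 libraries of a tissue agreed within sampling noise (chi-square of 11.5 or more per degree of freedom).

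Counts were rounded, filtered with filterByExpr and compared with the robust quasi-likelihood test of edgeR 4.0.16 in R 4.3.3 (TMM factors, no block, Benjamini-Hochberg adjustment over all genes tested). Log2 CPM used a prior count of 2. Ratios were tested by an exact sign-flip permutation test over 10 rats and correlations by permutation in scipy 1.17.1. Fits and correlations were tested on simulated data. The simulated fit changed far fewer genes than were called here, all upwards, so it does not bear on the choice of scaling. Alternatives were other scalings, filters and prior counts, limma-voom (limma 3.58.1), DESeq2 1.42.0, the animal as a block, and animals or libraries left out. Leaving out adipose library 4 alone, muscle library 2 alone, rats 2 and 4 together, or adipose libraries 4, 7 and 8 together, and ratios scaled by library totals, were chosen after seeing the data. Leaving out each rat in turn was planned, and so was the fit without adipose libraries 1, 3 and 5. Those libraries stand apart only in these same data, so leaving them out is not an independent check.

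The 4 genes and the lists were chosen with earlier results of these data known. Beyond the 4 genes, the rule for named genes took the 2 highest and 2 lowest r with Fbxo32 in muscle. The files used here pair no other identifier with a name, so the wider FoxO and proteolysis list and the tissue markers were not analysed here, and the tissue labels were not checked against markers. Same-numbered libraries are from 1 rat, per the design text and titles; over 8291 genes, deviations from the tissue means had a median r of 0.12 between libraries of a rat (-0.22 to 0.42) and -0.02 between rats.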

Additional observations from a re-analysis of the deposited data

Results flagged for a closer look

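Fbxo32 in adipose library 4 stood apart from the other 9 adipose libraries, with a log2 CPM of 5.06 against 2.74 in library 7, the nearest. The gap was 0.53 of the whole range of the group, above Dixon's 95% critical value for 10 samples. Levels of the 4 genes were examined in 8 groups of 10 libraries, and chance gives about 1 such case in 20 groups. In the same library 251 of 10152 genes exceeded each other adipose library at least 2-fold, against at most 33 in any other, and 86 other genes had a gap at least as large as that of Fbxo32. Foxo1 and Foxo3 were at 32.3 and 18.1 CPM there, close to libraries 7 and 8, and the muscle-restricted set was at a median of 0.0455% of its muscle level, with a 90th percentile of 1.53%, the highest of the 10 adipose libraries. The library also had the highest TMM factor, 1.98. The part of these features in the Fbxo32 level was not tested.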

How the results depend on the processing

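The number of genes called was 11011 in the reported fit and 10702 to 13894 over the alternatives, the highest without a filter. Trim63 and Fbxo32 were called higher in muscle under each alternative run, and each of the 6 ratios passed its test under each alternative. For Foxo3 the exception was library totals, with a log2 fold change of 0.14. Foxo1, called in neither direction in the reported fit, was at -1.47 and called with library totals. It was at 0.031 with limma-voom, 0.091 with the animal as a block, 0.0021 without adipose library 4, and -0.22 to 0.093 with each rat left out; none of these was past the test. The replicate block, which pairs the tissues of a rat, changed no call of the 4 genes (Foxo3 1.82, Trim63 8.25, Fbxo32 4.53). In muscle, r of Trim63 with Fbxo32 was -0.092 with relative log expression factors and -0.45 to 0.21 with each rat left out, r of Foxo1 with Fbxo32 was -0.32 to 0.45, and r of Foxo1 with Foxo3 was 0.56 to 0.87. In adipose tissue, r of Trim63 with Foxo1 was -0.41 to 0.051 and with Foxo3 -0.47 to 0.044, and 0.26 and 0.22 without rats 1, 3 and 5. Trim63 with Fbxo32 was at -0.057 to 0.46. Foxo3 with Fbxo32 was at 0.69 to 0.83 and passed the adjusted test in 1 of 10 leave-outs, that of rat 3. Without rat 3, r of Foxo1 with Fbxo32 was 0.75 (exact permutation test, n = 9, adjusted p = 0.0605) and rho 0.95 (adjusted p = 0.00188). Across tissues, Fbxo32 had r = -0.52 to 0.18 and 0.16 without the 2 farthest libraries, and without rats 1, 3 and 5 Foxo3 was at -0.063 and Trim63 at -0.078. The cause of these changes was not tested. A leave-out also holds fewer rats. Depth limits Trim63 in adipose tissue, where 6 to 59 reads were counted per library.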
